A study of Mus musculus with 27 samples.

Results

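Solute carriers (SLC) are the large group of membrane proteins that move amino acids, sugars, carboxylates, vitamins, metals and organic ions across cell and organelle membranes without splitting ATP. The 121 SLC genes described here were those detected in mouse liver on at least 1 of 9 diets. They were chosen from 343 genes on the array whose symbol is Slc followed by a digit, with 4 further genes (Slc10a1, Slc2a2, Slc22a5 and Slc25a20) left out by the rule. A probe set counted when the annotation gave it exactly 1 gene symbol and its mean over the 3 arrays of a diet exceeded log2(100), or 6.64, in at least 1 diet. This detection level kept 169 of 649 SLC probe sets, and 6478 genes over the whole array. The same arrays chose the members, so that a gene was detected in a given diet is a description and no finding. Of the 121 genes, 94 exceeded the level in all 9 diets, 108 exceeded it on the control diet and 10 exceeded it in 1 diet alone. Just outside the limit lay probe sets of Slc35e1, Slc35c2 and Slc10a7, each with a highest diet mean of 6.61. Just inside lay Slc9a3r2 at 6.65, Slc25a10 at 6.67 and Slc37a3 at 6.68.

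Liver RNA came from male C57BL/6 mice that were 10 weeks old when bought and then ate a diet for 3 weeks, with n = 3 mice per diet and 1 array per mouse, and no mouse had been fasted. The purified AIN-93 diet was the control. The other diets were natural-ingredient lab chow, 60% fructose, high fat, a Western diet rich in saturated fat and sucrose (42% of calories from fat), an atherogenic diet that holds cholesterol and cholic acid besides fat and sucrose, a diet deficient in essential fatty acids (EFA), a diet low in n-3 fatty acids with 7% sunflower oil, and diet restriction. Restricted mice ate lab chow at 75% of the freely eaten amount, so that group differed from the AIN-93 control in both food and quantity and from the lab chow group in quantity alone. The arrays called low n-3 here carry a DHA supplement in their titles and diet tags and the sunflower oil diet in their descriptions, so what these mice ate is less certain than for the others.

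In the liver, carriers of the plasma membrane bring amino acids, organic anions and vitamins into the hepatocyte and release ketone bodies and lactate. The SLC25 family in the inner mitochondrial membrane passes phosphate, nucleotides, citrate and aspartate between matrix and cytosol. The SLC35 family brings nucleotide sugars into the Golgi apparatus, and SLC30, SLC39 and SLC40 proteins move zinc, manganese and iron. A symbol of this form does not always name a carrier. Slc9a3r1 and Slc9a3r2 encode scaffold proteins that bind carriers, and Slc7a6os is named for the gene beside it.

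Values are log2 intensities, averaged for each gene over its kept probe sets. Differences are printed as percentages of the comparison diet, with 95% confidence intervals (CI). Levels are compared between diets for 1 gene and never between genes, since probe sets differ in brightness. A call means an adjusted p under 0.05 in limma over all detected genes. If every array on the lower side fell short of the detection level, that level takes their place and the printed fold is a minimum.

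All 7 hepatocyte markers on the array were detected, and the sum of their intensities ranged from 269400 to 325300 over the arrays of all diets. Kupffer cell markers were kept for 8 of 11, those of sinusoidal endothelium for 6 of 7 and those of stellate cells for 5 of 8. Sums of marker intensity, here and below, take in every marker on the array, kept or not. Markers of cholangiocytes, T and NK cells, B cells and neutrophils were kept for 0, with Epcam, Cd3e, Cd79a and Csf3r at or below 3.29 on every array. A pair of arrays stood apart in granulocyte transcripts. S100a8 was 10.16 in atherogenic replicate 2 and 11.03 in low n-3 replicate 2, against at most 5.41 on all other arrays. Without atherogenic replicate 2 the number of SLC genes called on that diet was 19, as with it, but the genes were not the same. The split moved from 14 higher and 5 lower to 13 and 6, and Slc38a10 lost its call (adjusted p = 0.206). Against Western, 21 genes were called without that array instead of 23. Without low n-3 replicate 2 the number called on the low n-3 diet was 3 instead of 2.

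RefSeq promoters of 300 bases around a start site (GRCm38.p6) held 136 entries for 95 of the 121 genes. They are shown for 4 genes that carry the results below, Slc30a10 and Slc25a47 for diet restriction, Slc16a12 for changes in both directions and Slc22a23 for calls across diets. The windows are chr1:185454598-185454897 on the plus strand for Slc30a10, chr19:34747279-34747578 on the minus strand for Slc16a12, chr12:108850879-108851178 on the plus strand for Slc25a47 and chr13:34345169-34345468 on the minus strand for Slc22a23. The Slc25a47 window lies inside the listed gene, chr12:108849833-108856815, and does not hold its listed start. Capitals mark the core of the metal response element (TGCGCNC), the E-box (CACGTG) and the CCAAT box on either strand, so a match on the other strand is printed as its reverse complement, and neighbouring capitals can be overlapping matches.
Slc30a10: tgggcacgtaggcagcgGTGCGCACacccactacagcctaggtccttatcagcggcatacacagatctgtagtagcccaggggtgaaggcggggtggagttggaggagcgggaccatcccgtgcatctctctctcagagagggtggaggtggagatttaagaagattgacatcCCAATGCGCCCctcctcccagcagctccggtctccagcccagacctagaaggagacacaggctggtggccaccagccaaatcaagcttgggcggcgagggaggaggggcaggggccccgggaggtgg
Slc16a12: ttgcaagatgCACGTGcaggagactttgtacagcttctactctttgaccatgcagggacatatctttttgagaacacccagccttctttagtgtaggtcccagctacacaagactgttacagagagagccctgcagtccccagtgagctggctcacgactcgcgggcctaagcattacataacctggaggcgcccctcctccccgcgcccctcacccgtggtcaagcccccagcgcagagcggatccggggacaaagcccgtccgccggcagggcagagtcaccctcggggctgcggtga
Slc25a47: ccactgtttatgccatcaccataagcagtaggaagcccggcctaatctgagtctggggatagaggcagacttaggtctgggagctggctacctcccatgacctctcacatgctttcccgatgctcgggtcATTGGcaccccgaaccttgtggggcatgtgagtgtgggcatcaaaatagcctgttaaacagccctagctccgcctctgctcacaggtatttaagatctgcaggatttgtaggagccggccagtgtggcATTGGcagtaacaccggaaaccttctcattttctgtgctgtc
Slc22a23: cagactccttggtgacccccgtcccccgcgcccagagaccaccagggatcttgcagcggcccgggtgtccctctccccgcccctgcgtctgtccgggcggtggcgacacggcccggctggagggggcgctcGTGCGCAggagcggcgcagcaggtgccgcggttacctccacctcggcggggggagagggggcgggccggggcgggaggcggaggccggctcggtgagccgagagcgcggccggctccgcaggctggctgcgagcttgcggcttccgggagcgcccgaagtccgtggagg
In Slc30a10 the first run of capitals holds overlapping metal response matches on both strands, and the second holds a CCAAT box that overlaps a metal response match. The metal response core was present in 28.7% of the 136 SLC entries and in 15.4% of all 32851 entries, and the E-box in 15.4% and 7.15%. The CCAAT box was present in 34.6% and 37.4%. The cyclic AMP element (TGACGTCA) was found in 0 of the 23 genes called higher under diet restriction that had an entry, against 1.79% of all entries, and the FOXO motif (GTAAACA) in 0 against 3.65%. These matches describe letters in a window, and no measurement here tests them.

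SLC genes spread more widely over the diets than the detected genes as a whole. The difference between a gene's highest and lowest diet mean had a median of 0.93 on the log2 scale over the 121 genes and of 0.67 over all 6478. It exceeded 1 in 58 SLC genes (47.9%, against 26.6% of all genes) and 2 in 18 (14.9% against 7.78%). The spread between mice of 1 diet was also wider, with a median SD of 0.24 against 0.18. In the moderated F test 90 SLC genes (74.4%) varied over the diets, close to the 71.6% of all detected genes. Diet restriction gave the highest of the 9 diet means for 45 SLC genes (37.2%, against 25% of all genes) and the lowest for 27 (22.3% against 28%). High fructose and EFA deficiency each gave the lowest mean for 20 SLC genes (16.5%, against 11.9% and 10.2% of all genes). Genes were kept for a high mean in any diet, so these shares are descriptions.

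Against the AIN-93 control, diet restriction changed 49 SLC genes, 33 higher (27.3%) and 16 lower (13.2%), where 13.5% and 16% of all detected genes were higher and lower. Of the 33, Slc16a5, Slc19a1 and Slc25a32 had been detected through restriction alone, which fixes their direction. Among the 105 SLC genes whose mean over all arrays exceeded the detection level, 43 (41.0%) were called, against 29.0% of the 5772 genes of that kind. Atherogenic diet changed 14 SLC genes higher and 5 lower (11.6% and 4.13%, background 9.03% and 5.88%). High fat changed 8 higher and 5 lower (background 6% and 3.33%), and Western 6 higher and 6 lower (background 4.31% and 4.48%). Lab chow changed 4 higher and 3 lower (background 2.02% and 2.19%), high fructose 2 higher and 3 lower (1.17% and 2.73%), EFA deficiency 1 higher and 4 lower (3.04% and 2.47%), and low n-3 0 higher and 2 lower (0.34% and 0.726%). On the low n-3 diet 12 SLC genes (9.92%) had an unadjusted p under 0.05 in limma, as did 10% of all detected genes. With each array centred on its median the split of higher and lower calls moved to 8 and 3 on Western, 8 and 2 on lab chow and 13 and 8 on the atherogenic diet. In all, 73 SLC genes were called in at least 1 of the 8 diets and 48 in none. Calls outside restriction were less stable. Fitted with the control group alone, the EFA-deficient, Western, high fructose and low n-3 diets gave 0 calls each. Under restriction 38 of the 49 calls were kept whichever array was left out, on the atherogenic diet 12 of 19, on high fat 7 of 13, on Western 2 of 12, and on lab chow, high fructose and EFA deficiency 1 of 7, 1 of 5 and 1 of 5.

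**Figure D1:**
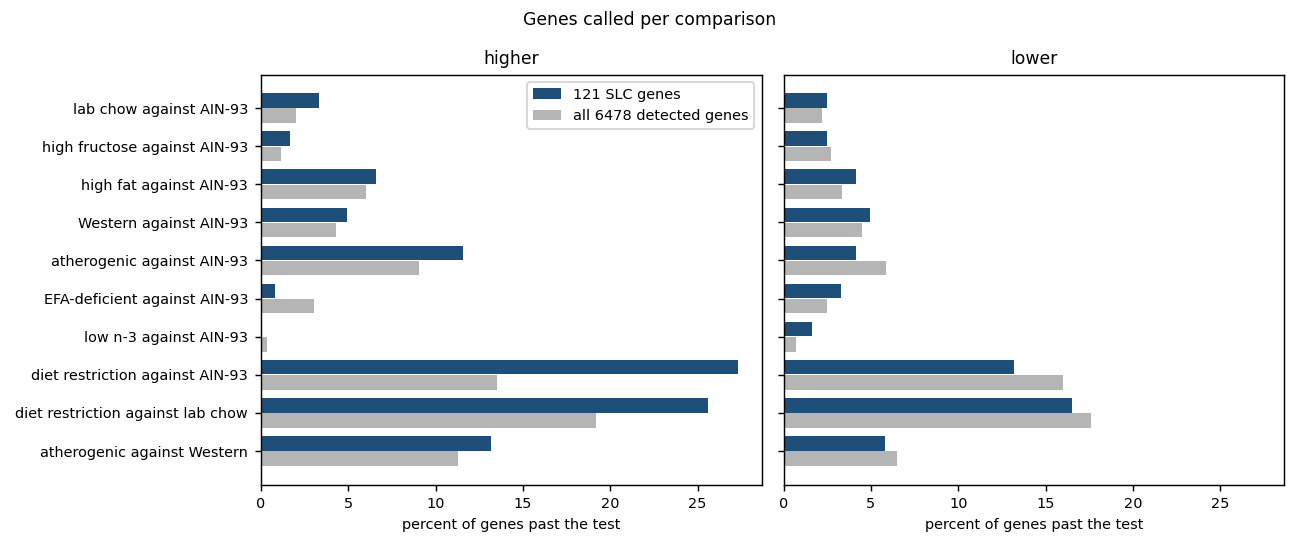
Bars give the percent of genes called higher (left) or lower (right) in each comparison, on 1 common scale, for the 121 SLC genes (blue) and all 6478 detected genes (grey), with n = 3 arrays per diet. In diet restriction against AIN-93 the SLC bar for higher reaches 27.3% and the grey bar 13.5%.

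Under diet restriction the class of monocarboxylate and dicarboxylate carriers had the highest median, 0.71 on the log2 scale, with 4 of 7 detected genes higher and 2 lower. Of the 4, Slc16a5 was detected through restriction alone, which fixes its direction, and it enters the median. For this class and those below, the shares of all detected genes under restriction were 13.5% higher and 16% lower. The median was 0.11 over all 121 SLC genes and -0.03 over all detected genes. The 6 genes called are of the monocarboxylate family SLC16, and the dicarboxylate carrier Slc13a3 was not called (adjusted p = 0.635). Only some SLC16 proteins carry lactate, pyruvate or ketone bodies, while Slc16a12 and Slc16a10 carry creatine and aromatic amino acids. Slc16a7 (MCT2), a carrier of pyruvate and ketone bodies, was 9.19, 9.54 and 9.34 on the control arrays and 11.42, 11.50 and 11.48 on the restricted ones. The highest array of any other diet was 10.29, and restriction stood at 432% (CI 314 to 593, adjusted p = 1.09e-06) of control. Slc16a12 (MCT12), a creatine carrier, was 9.35, 9.23 and 9.15 in control and 10.64, 11.11 and 10.90 under restriction, or 312% (CI 251 to 387, adjusted p = 1.75e-07) of control, with every restricted array above those of all other diets. Slc16a1 (MCT1), the widespread lactate and ketone body carrier, was 10.19, 10.98 and 11.08 in control and 9.33, 10.03 and 9.72 under restriction, and fell to 48.0% (CI 35.1 to 65.7, adjusted p = 0.00291).

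The other SLC16 members lay near the detection level or were less stable. Slc16a5 (MCT6) was 2.57, 2.50 and 2.57 in control, close to the lowest value on the arrays, and 8.39, 6.74 and 7.35 under restriction, where it was at least 1.80-fold higher. The highest other arrays, at 4.61 and 4.01, were atherogenic replicate 2 and low n-3 replicate 2, the arrays with high S100a8. Slc16a6 (MCT7) was 5.38, 6.39 and 6.36 in control and 3.19, 4.14 and 3.23 under restriction. All of those arrays lay below the detection level, so no fold is given, and the gene was kept for its low n-3 arrays of 6.00, 7.26 and 7.59. Slc16a10, a carrier of aromatic amino acids, was at 163% (adjusted p = 0.0196) of control, a call lost without AIN-93 replicate 2 (adjusted p = 0.128) or diet restriction replicate 3 (adjusted p = 0.0867).

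The mitochondrial carrier family, the largest class, had 11 of its 26 detected genes higher under restriction and 3 lower, with a class median of 0.32. Of all detected genes 13.5% were higher and 16% lower. Among the 11, Slc25a32 was detected through restriction alone, which fixes its direction. Slc25a47, a carrier found mostly in liver, was 12.55, 12.92 and 12.51 in control and 13.95, 14.04 and 14.32 under restriction. Its restricted arrays lay above every other array in the series, the nearest being 13.79 on Western, and it reached 272% (CI 211 to 350.3, adjusted p = 9.57e-06) of control. Both aspartate and glutamate carriers of the malate-aspartate shuttle were higher than in control. Slc25a13 (citrin) was 9.77, 9.80 and 9.82 in control and 10.93, 10.56 and 10.47 under restriction, or 181% (CI 143 to 229, adjusted p = 0.00148). Slc25a12 (aralar) was 7.16, 7.47 and 7.37 and 8.32, 8.00 and 8.05, or 173% (CI 135 to 221, adjusted p = 0.00432). Slc25a33, a pyrimidine nucleotide carrier, rose to 253% (CI 183 to 349.7, adjusted p = 0.000404), and its restricted arrays of 9.88, 9.66 and 9.73 lay above all others.

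Slc25a32, which carries folate or FAD into mitochondria, was 5.84, 6.23 and 6.20 in control and 7.63, 8.14 and 8.53 under restriction, at least 2.75-fold higher. The mitochondrial iron carriers also rose, Slc25a37 (mitoferrin 1) to 189% (adjusted p = 8e-04) and Slc25a28 (mitoferrin 2) to 157% (adjusted p = 0.00583) of control. Alas2, the heme synthesis enzyme of red cell precursors, was the 1 erythroid marker kept. Its arrays were 9.31, 9.11 and 9.30 in control and 7.10, 7.32 and 6.61 under restriction. The other erythroid marker on the array, Hba-a1, was at or below 2.57 everywhere. The part of red cell precursors in these changes was not tested. Slc25a5, an exchanger of ADP and ATP, was at 133% (adjusted p = 0.00361) and Slc25a39, a glutathione carrier, at 127% (adjusted p = 0.00701).

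The lower members of the family were Slc25a45, Slc25a1 and Slc25a23. Slc25a45 was 6.99, 7.38 and 7.21 in control and 5.04, 5.42 and 5.02 under restriction, a fall of at least 1.46-fold (adjusted p = 1.81e-07). Slc25a1, the citrate exporter that feeds lipid synthesis in the cytosol, was at 65.6% (adjusted p = 0.0187) of control, a call lost without AIN-93 replicate 2 (adjusted p = 0.052), AIN-93 replicate 3 (adjusted p = 0.119) or diet restriction replicate 3 (adjusted p = 0.0978). Slc25a23, a carrier of ATP-magnesium and phosphate, was at 78.1% (adjusted p = 0.0494), a call lost without AIN-93 replicate 1 (adjusted p = 0.135), AIN-93 replicate 3 (adjusted p = 0.145), diet restriction replicate 1 (adjusted p = 0.163) or diet restriction replicate 2 (adjusted p = 0.0706). Slc25a30 had a wide range of diet means and no call. Its arrays were 7.91, 7.38 and 8.38 in control and 6.17, 5.62 and 5.46 under restriction, but 9.29, 5.80 and 6.72 on the atherogenic diet. Mice of 1 diet differed by as much as diets did, and the moderated F test did not pass (adjusted p = 0.126).

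Amino acid carriers were higher for 5 of 16 detected genes under restriction and lower for 1, with a class median of 0.48. Slc7a2 (CAT2), which carries arginine and lysine, was 8.67, 7.96 and 7.96 in control and 10.18, 9.47 and 9.74 under restriction, or 303% (CI 199 to 463, adjusted p = 0.000964). Slc1a2, a glutamate carrier, was 8.06, 8.08 and 8.00 and 9.90, 9.02 and 9.20, or 251% (CI 192 to 327, adjusted p = 4.38e-05). Slc38a2 (SNAT2), a carrier of small neutral amino acids, reached 232% (CI 164 to 328, adjusted p = 0.00217), and Slc6a13 (GAT2), a GABA and taurine carrier, 139.8% (CI 122 to 159.8, adjusted p = 0.00156). None of these pairs of groups overlapped. Slc38a4 (SNAT4), of the same family as Slc38a2, was at 141% (adjusted p = 0.0446), and that call was lost with any 1 of the 6 arrays left out, without AIN-93 replicate 1 (adjusted p = 0.0583), AIN-93 replicate 2 (adjusted p = 0.0938), AIN-93 replicate 3 (adjusted p = 0.156), diet restriction replicate 1 (adjusted p = 0.154), diet restriction replicate 2 (adjusted p = 0.0532) or diet restriction replicate 3 (adjusted p = 0.0559). Slc1a4 (ASCT1), an exchanger of serine and alanine, went down from 7.02, 6.41 and 7.91 in control to 4.69, 5.57 and 5.16, a fall of at least 1.39-fold (adjusted p = 0.00272). Slc3a2, the heavy chain shared by several amino acid exchangers, was at 127% (adjusted p = 0.181) of control and was not called.

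Metal and heme carriers had 2 higher and 3 lower of 20 under restriction and a class median of -0.05. These counts lay near the shares of all detected genes, 13.5% higher and 16% lower. Slc30a10, the manganese exporter whose promoter is printed above and whose gene spans chr1:185454848-185468762, was 8.06, 8.38 and 8.62 in control and 4.40, 4.73 and 4.66 under restriction. On all other diets its arrays lay between 7.56 and 8.71, and every restricted array lay below the detection level. The fall was at least 3.27-fold (adjusted p = 1.26e-13). Slc39a10, a zinc importer, fell at least 1.12-fold (adjusted p = 0.000648). Slc39a8, which imports zinc and manganese, was at 70.0% (adjusted p = 0.0172), a call lost without AIN-93 replicate 2 (adjusted p = 0.0824), AIN-93 replicate 3 (adjusted p = 0.0541), diet restriction replicate 2 (adjusted p = 0.0508) or diet restriction replicate 3 (adjusted p = 0.0634). Slc39a4 (ZIP4), the importer known for intestinal zinc uptake, was 6.78, 6.66 and 6.71 in control and 8.33, 8.81 and 8.05 under restriction, or 319.9% (CI 198 to 517, adjusted p = 0.00215). Slc48a1, a heme carrier of lysosomes, rose to 170.1% (CI 142 to 204, adjusted p = 0.000293). Slc30a1, a zinc exporter of the cell surface, was at 113% (adjusted p = 0.663), not called.

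Organic ion carriers were higher for 1 gene of 10 and lower for 3 under restriction. Slc22a7 (OAT2), an organic anion carrier of the hepatocyte's blood side whose gene lies at chr17:46432185-46438477, was 10.56, 10.21 and 10.92 in control and 7.64, 6.97 and 6.19 under restriction. The groups lay far apart, and the restricted mean was 8.08% (CI 3.63 to 18.0, adjusted p = 0.000141) of control. Slc17a3, a carrier of urate and other organic anions, was 10.03, 9.69 and 9.97 in control and 8.28, 8.01 and 8.04 under restriction, below every other array of the series, at 29.0% (CI 22.5 to 37.4, adjusted p = 5.04e-07). Slc22a30, of the organic anion carrier family, was at 49.6% (CI 35.7 to 69.0, adjusted p = 0.00612). Slc15a4, which moves peptides and histidine out of lysosomes, rose from 7.61, 7.37 and 7.26 to 9.61, 8.96 and 9.16, or 355% (CI 265 to 476, adjusted p = 2.7e-06).

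Sugar carriers were higher for 3 genes of 7 and lower for 1, and the inorganic ion class, which holds the scaffold genes Slc9a3r1 and Slc9a3r2, higher for 3 of 8 and lower for 0. Slc37a4, which brings glucose-6-phosphate into the endoplasmic reticulum for the last step of glucose release, was 10.46, 10.90 and 10.54 in control and 12.24, 11.71 and 11.88 under restriction, or 248% (CI 170.2 to 362, adjusted p = 0.00222). Slc2a9, a urate carrier, was 6.74, 6.75 and 6.73 in control and 7.88, 7.99 and 7.99, or 232% (CI 188 to 287, adjusted p = 8.38e-06). The restricted arrays of both lay above all others. Slc2a1 (GLUT1), a glucose carrier of many cell types, was at 206% (adjusted p = 0.00555), but its brightest probe set alone did not pass (adjusted p = 0.093). Slc8b1, the sodium and calcium exchanger of mitochondria, was 7.49, 6.95 and 6.98 in control and 9.09, 9.00 and 9.18 under restriction, or 387% (CI 289 to 517, adjusted p = 9.84e-07). Slc20a1, a phosphate importer, was 6.92, 8.68 and 8.02 in control and 9.78, 9.44 and 9.55, or 329% (CI 192 to 563, adjusted p = 0.00458), and again every restricted array was above all others. Slc9a3r1, the scaffold protein, was at 158% (adjusted p = 0.00294).

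The nucleotide sugar class, which holds the SLC35 genes by family name, had 1 of 14 higher and a class median of 0.01. That gene was Slc35g1 at 351% (CI 213 to 578, adjusted p = 0.0015), and the family name does not show what it carries. Vitamin carriers had 2 higher and 1 lower of 6 under restriction. Slc19a1, the reduced folate carrier, was 5.10, 5.83 and 5.48 in control and 7.29, 7.43 and 7.58 under restriction, at least 1.73-fold higher. It was detected through restriction alone, which fixes its direction. Slc46a3, a lysosomal carrier, rose to 191% (CI 149 to 245, adjusted p = 0.00113). The lower vitamin carrier was Slc46a1, of the same family as Slc46a3. Its call was lost with any 1 of the 6 arrays left out (adjusted p between 0.0623 and 0.114). The class of fatty acid, acetyl-CoA and choline carriers had 1 higher and 1 lower of 5. Its lower gene, the choline carrier Slc44a1, was 9.78, 9.92 and 10.38 in control and 8.29, 8.86 and 8.80 under restriction. Slc44a1 fell to 38.5% (CI 30.6 to 48.5, adjusted p = 5.06e-06). The sum of the 7 hepatocyte markers was 287000 to 325300 in restricted livers and 283900 to 306500 in control, with 1 marker higher (Tat) and 1 lower (Fgb). Of 8 kept Kupffer cell markers 1 was lower (Clec4f), where 16% of all detected genes were lower. Sums over the 11 on the array were 1279 to 3472 under restriction against 3213 to 4296. Of 6 kept markers of sinusoidal endothelium 1 was lower (Stab1), and sums over the 7 on the array were 675.4 to 962.6 against 839.6 to 1005. Of 5 kept stellate cell markers 1 was lower (Col3a1), and sums over the 8 on the array were 464.3 to 626.8 against 710.1 to 854.3. In bulk tissue, fewer cells of a type and less RNA per cell cannot be told apart, and the part of these markers in the SLC changes was not tested.

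**Figure D2:**
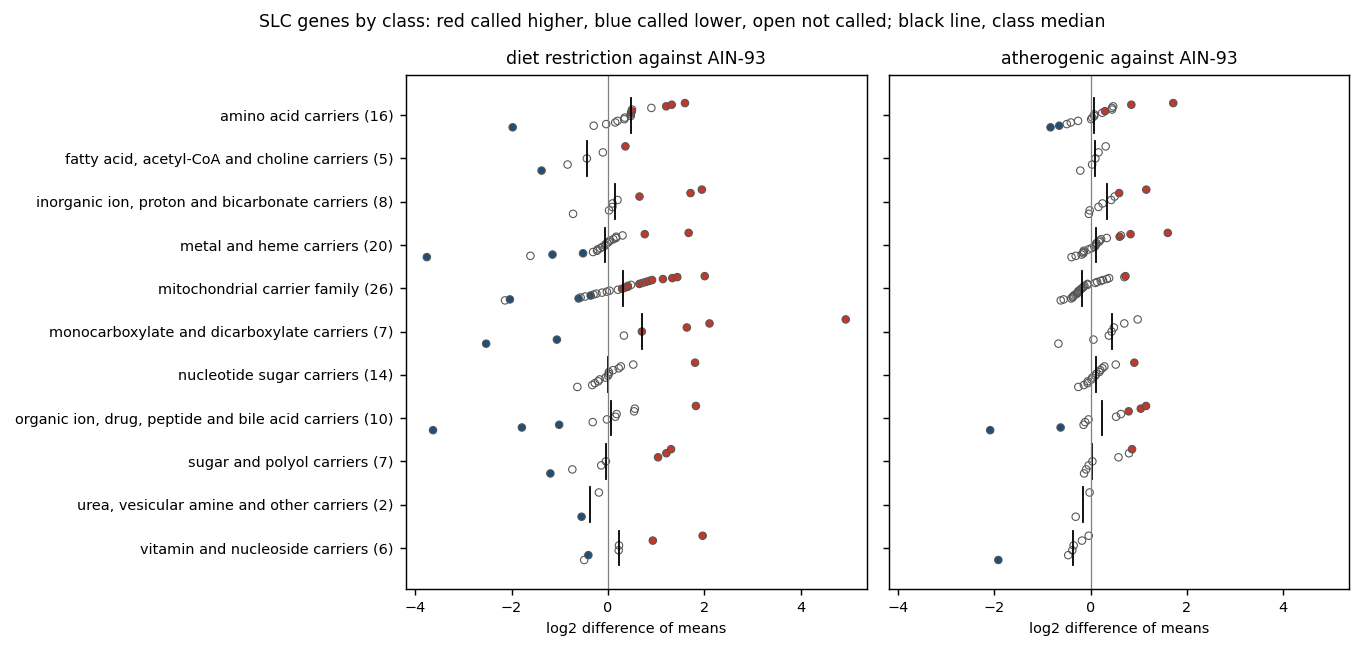
Each point is 1 of the 121 SLC genes, placed by its log2 difference from AIN-93 under diet restriction (left) or the atherogenic diet (right), with classes on the vertical axis (number of genes in brackets), black lines at class medians and n = 3 arrays per diet. Red points were called higher, blue ones lower and open ones were not called, and the mitochondrial carriers hold 11 red and 3 blue points under restriction and 1 red point on the atherogenic diet.

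Lab chow and restricted mice ate the same food, so this comparison holds the food constant. Restriction changed 31 SLC genes higher and 20 lower against lab chow (25.6% and 16.5%), where 19.2% and 17.6% of all genes were higher and lower. Among the 31 were Slc16a5, Slc19a1 and Slc25a32, detected through restriction alone, which fixes their direction. Of the 51 calls, 36 were kept whichever array was left out. Among the 105 genes with a mean above the detection level, 44 (41.9%) were called, against 36.1%. The restricted arrays are the same as in the comparison with AIN-93, so these calls are no second test of them. Slc20a1, the phosphate importer, was 7.42, 6.59 and 6.21 on lab chow, and restriction stood at 721% (CI 421 to 1236, adjusted p = 4.56e-06) of that. Slc37a4, the glucose-6-phosphate carrier, was 10.05, 10.17 and 9.65 on lab chow, and restriction stood at 397% (CI 272 to 579.6, adjusted p = 4.78e-06). Slc25a47 stood at 358% (CI 278 to 462, adjusted p = 6.87e-08) and Slc8b1 at 329% (CI 246 to 440.4, adjusted p = 1.15e-06). Slc30a10 was at least 2.42-fold lower than on lab chow (adjusted p = 1.99e-13) and Slc17a3 was at 30.3% (CI 23.5 to 39.1, adjusted p = 1.65e-07). For Slc22a7 the lab chow arrays were 8.15, 9.02 and 8.76, and restriction stood at 30.5% (adjusted p = 0.0196), a call lost without diet restriction replicate 3 (adjusted p = 0.101), lab chow replicate 2 (adjusted p = 0.0734) or lab chow replicate 3 (adjusted p = 0.0547). Slc39a4, the zinc importer, was 8.10, 8.15 and 8.18 on lab chow, 268% (CI 166 to 434, adjusted p = 0.0081) of AIN-93, and restriction stood at 119% (adjusted p = 0.592) of lab chow, which was not called. Other genes called against AIN-93 were likewise not called against lab chow. Restriction stood at 129% (adjusted p = 0.0825) of lab chow for citrin (Slc25a13), 121% (adjusted p = 0.094) for Slc48a1, 134% (adjusted p = 0.0587) for Slc46a3, 115% (adjusted p = 0.103) for Slc6a13 and 139% (adjusted p = 0.117) for Slc2a1. Slc25a39, Slc25a51, Slc38a4, Slc39a8 and Slc66a2 also missed the call there, with adjusted p between 0.111 and 0.311. Of these genes Slc48a1 was also called on lab chow, at 141% (adjusted p = 0.014) of AIN-93, a call lost without AIN-93 replicate 1 (adjusted p = 0.0789) or lab chow replicate 3 (adjusted p = 0.0699).

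On the atherogenic diet the taurine carriers Slc6a6 and Slc6a13 rose, and the vitamin C carrier Slc23a1 fell. Slc6a6, the taurine carrier, was 7.83, 6.74 and 7.84 in control and 9.29, 9.16 and 9.10 on the atherogenic diet, or 329% (CI 216 to 501, adjusted p = 0.000474). Slc6a13 (GAT2), which carries GABA and taurine, was 10.32, 10.34 and 10.29 in control and 11.16, 11.15 and 11.18, or 179.8% (CI 157 to 206, adjusted p = 2.28e-06). The atherogenic arrays of both lay above those of every other diet. Taurine is the amino acid with which mouse liver conjugates most bile acids. Slc6a12 (BGT1), a carrier of betaine and GABA of the same family, was 8.18, 8.07 and 8.15 in control and 6.96, 7.65 and 7.30, and fell to 56.2% (CI 45.0 to 70.2, adjusted p = 0.00108). Slc38a3 (SNAT3), a glutamine carrier, was at 63.7% (adjusted p = 0.00911), a call lost without atherogenic replicate 1 (adjusted p = 0.0523). Slc23a1, the sodium-dependent vitamin C carrier, was 9.21, 8.72 and 9.60 in control and 6.68, 7.93 and 7.18 on the atherogenic diet, below all arrays of the other diets. It stood at 26.5% (CI 16.9 to 41.5, adjusted p = 0.000282) of control.

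Slc8b1 was 8.58, 7.94 and 8.36 on the atherogenic diet, or 223% (CI 167 to 298, adjusted p = 0.00059) of control, and Slc15a4 was 8.01, 8.50 and 8.86, or 206% (CI 154 to 276, adjusted p = 0.00177). Slc17a2, an organic anion carrier, reached 222% (CI 156 to 317, adjusted p = 0.00397). Of the metal carriers, Slc39a4 was 8.55, 8.14 and 8.28, or 304% (CI 188 to 492, adjusted p = 0.00321), and Slc48a1 was at 152% (adjusted p = 0.0031). Slc40a1 (ferroportin, the iron exporter), known in macrophages as well as hepatocytes, was 9.05, 9.43 and 9.01 in control and 10.34, 9.87 and 9.78. Its arrays did not overlap, but the call at 178% (adjusted p = 0.0133) was lost without AIN-93 replicate 3 (adjusted p = 0.0625) or atherogenic replicate 1 (adjusted p = 0.0731). Kupffer cell markers moved with this diet: 4 of 8 kept ones were higher, where 9.03% of all detected genes were higher. The summed intensity of the 11 on the array was 8450 to 15170 against 3213 to 4296 in control. Of 6 kept markers of sinusoidal endothelium 1 was lower (Clec4g), where 5.88% of all detected genes were lower. Sums over the 7 on the array were 589.6 to 1015 against 839.6 to 1005. The part of both lists in the SLC changes was not tested. Slc22a7 was 7.21, 10.30 and 7.92 on this diet and overlapped control. Its call at 23.6% (adjusted p = 0.0192) was lost without AIN-93 replicate 3 (adjusted p = 0.0787), atherogenic replicate 1 (adjusted p = 0.113) or atherogenic replicate 3 (adjusted p = 0.0752), and replicate 2 was the array near the control level.

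The Western and atherogenic diets are both rich in fat and sucrose, and the labels name cholesterol and cholic acid for the atherogenic diet. Against Western, the atherogenic diet had 16 SLC genes higher and 7 lower (13.2% and 5.79%), where 11.3% and 6.5% of all genes were higher and lower, a split that moved to 13 and 11 with each array centred on its median. Among the 16 was Slc44a2, detected through the atherogenic diet alone, which fixes its direction. Of the 105 SLC genes with a mean above the detection level, 19 (18.1%) were called, against 16.9% of all genes of that kind. Slc6a13 stood at 178% (CI 156 to 204, adjusted p = 3.9e-06) of Western, Slc6a6 at 228% (CI 149.6 to 348, adjusted p = 0.00695) and Slc8b1 at 186% (CI 139 to 248, adjusted p = 0.00362). Slc17a1, a carrier of organic anions and phosphate, was 6.30, 6.12 and 5.53 on Western, below the detection level, and 7.23, 7.33 and 7.43 on the atherogenic diet, at least 1.61-fold higher (adjusted p = 0.000297). Slc23a1 was 8.48, 9.35 and 9.49 on Western, and the atherogenic diet stood at 27.8% (CI 17.7 to 43.5, adjusted p = 0.000316). Slc47a1 (MATE1), which exports organic cations into bile, stood at 59.0% (CI 48.0 to 72.4, adjusted p = 0.000831). All 8 kept Kupffer cell markers were higher in this comparison, where 11.3% of all detected genes were higher. Sums over the 11 on the array were 8450 to 15170 against 1618 to 2575. The atherogenic arrays are the same as in the comparison with AIN-93. Of the 23 calls against Western, 9 were kept whichever array was left out. Slc6a13, Slc6a6, Slc8b1, Slc17a1, Slc23a1 and Slc47a1 were among those kept.

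High fat and Western diets raised Slc47a1. Its arrays were 10.54, 10.83 and 10.54 in control, 11.34, 11.50 and 11.46 on high fat and 11.02, 11.44 and 11.29 on Western. Both sets lay above the control arrays, at 174% (CI 141 to 213, adjusted p = 0.00077) and 153% (CI 125 to 188, adjusted p = 0.00722) of control. On high fat, Slc22a18, an organic cation carrier, was at 190.0% (CI 140.1 to 258, adjusted p = 0.00664), Slc25a10, the mitochondrial dicarboxylate carrier, at 182% (CI 135 to 245, adjusted p = 0.00981) and Slc1a2 at 175% (CI 135 to 229, adjusted p = 0.00633). Of the 2 kept probe sets of Slc1a2, 1 was called on its own. The call of Slc1a2 was lost with no filter on low signal (adjusted p = 0.123). Slc44a1, the choline carrier, was 9.39, 9.14 and 9.33 and fell to 59.9% (CI 47.5 to 75.4, adjusted p = 0.00439), and Slc49a4 fell to 63.5% (CI 51.1 to 78.9, adjusted p = 0.00685). Slc30a10 was at 66.4% (adjusted p = 0.0134), a call lost without AIN-93 replicate 3 (adjusted p = 0.0921) or high fat replicate 2 (adjusted p = 0.069).

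On Western, 10 of the 12 calls were lost when 1 array was left out, those of Slc47a1 and Slc22a23 being kept. Slc25a47 was 13.20, 13.04 and 13.79, at 160.4% (adjusted p = 0.0161) of control, and lost the call without AIN-93 replicate 1 (adjusted p = 0.0599), AIN-93 replicate 3 (adjusted p = 0.0756) or Western replicate 3 (adjusted p = 0.0946). Slc25a12, the aspartate and glutamate carrier, was at 61.8% (adjusted p = 0.0112) and lost it without AIN-93 replicate 2 (adjusted p = 0.0536) or Western replicate 3 (adjusted p = 0.0603). Slc25a42, a mitochondrial carrier of coenzyme A, passed the detection level on Western alone, where its call is a description.

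The other diets moved few SLC genes. On 60% fructose, Slc16a12 was 8.57, 8.58 and 8.02 and fell to 55.3% (CI 44.5 to 68.6, adjusted p = 0.000643) of control. Slc2a9, a urate carrier that also takes sugars, was 6.00, 6.24 and 6.27 there, below the detection level and at least 1.07-fold lower (adjusted p = 0.0162), a call lost without high fructose replicate 1 (adjusted p = 0.0702). On lab chow, the call of Slc39a4 given above was the 1 kept whichever array was left out. EFA deficiency had Slc39a1, a zinc importer, at 71.1% (CI 60.3 to 83.9, adjusted p = 0.00773) of control, a call lost without EFA-deficient replicate 2 (adjusted p = 0.0517).

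Slc22a7, Slc16a12, Slc25a3 and Slc22a23 were the 4 genes called in at least 4 of the 8 diets. All 8 comparisons share the same 3 control arrays, so a gene whose control arrays lie off would be called in several of them together. Slc22a7 was lower on lab chow at 26.5% (adjusted p = 0.0313) of control, a call lost without AIN-93 replicate 1 (adjusted p = 0.0693), AIN-93 replicate 3 (adjusted p = 0.11), lab chow replicate 1 (adjusted p = 0.101) or lab chow replicate 3 (adjusted p = 0.0575). With EFA deficiency its arrays were 8.94, 9.38 and 7.91, at 28.4% (adjusted p = 0.0413), a call lost without AIN-93 replicate 1 (adjusted p = 0.0854), AIN-93 replicate 2 (adjusted p = 0.0623), AIN-93 replicate 3 (adjusted p = 0.135), EFA-deficient replicate 1 (adjusted p = 0.0628) or EFA-deficient replicate 3 (adjusted p = 0.152). On high fructose it was 9.18, 9.60 and 9.38 and on high fat 9.71, 9.45 and 8.75, neither of them called (adjusted p = 0.202 and adjusted p = 0.168). Its fall under restriction kept the call in every alternative run.

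Slc16a12 was called lower on 3 diets and higher on 1. Its arrays were 8.72, 8.48 and 8.44 with EFA deficiency, at 61.7% (CI 49.7 to 76.6, adjusted p = 0.00429) of control, and 8.64, 8.83 and 8.46 on low n-3, at 66.0% (CI 53.1 to 82.0, adjusted p = 0.0131). Those arrays and the fructose ones all lay below the lowest control array of 9.15, and the restricted ones lay above the highest of 9.35. The low n-3 call was lost without AIN-93 replicate 1 (adjusted p = 0.0537) or low n-3 replicate 3 (adjusted p = 0.0593). The gene lies at chr19:34668401-34747493, and its promoter, printed above, held 1 E-box.

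Slc25a3, the mitochondrial phosphate carrier, was called higher on 4 diets by small amounts, with little spread within a diet. It was 12.30, 12.42 and 12.44 in control, 12.66, 12.66 and 12.61 on fructose, 12.69, 12.63 and 12.61 on high fat, 12.71, 12.62 and 12.73 with EFA deficiency and 12.79, 12.70 and 12.56 under restriction. Every array of these diets lay above the control ones. The largest of the 4, with EFA deficiency and restriction, were 123% (adjusted p = 0.00897) and 123% (adjusted p = 0.0104) of control, and fructose and high fat were at 119.6% (adjusted p = 0.0244) and 119% (adjusted p = 0.0258). All depended on 1 control array. The EFA-deficient call was lost without AIN-93 replicate 1 (adjusted p = 0.0507), the restricted one without AIN-93 replicate 1 (adjusted p = 0.0564), the fructose one without AIN-93 replicate 1 (adjusted p = 0.106), high fructose replicate 1 (adjusted p = 0.0617) or high fructose replicate 2 (adjusted p = 0.061) and the high fat one without AIN-93 replicate 1 (adjusted p = 0.11), high fat replicate 1 (adjusted p = 0.0815) or high fat replicate 2 (adjusted p = 0.0515).

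Slc22a23, an SLC22 member with no settled substrate whose gene lies at chr13:34179158-34345275, was called lower on every diet but restriction. Its control arrays were 9.34, 9.11 and 9.28, and all arrays of the 7 diets where it was called lay between 8.51 and 9.01. Restricted arrays were 8.90, 9.14 and 8.75, which overlapped control, at 80.4% (adjusted p = 0.0573). The atherogenic and Western calls, at 65.0% (CI 56.0 to 75.4, adjusted p = 0.000336) and 71.0% (CI 61.2 to 82.4, adjusted p = 0.00324) of control, were kept whichever array was left out. Lab chow stood at 78.3% (adjusted p = 0.0319), a call lost without AIN-93 replicate 1 (adjusted p = 0.114), AIN-93 replicate 3 (adjusted p = 0.0994), lab chow replicate 2 (adjusted p = 0.0822) or lab chow replicate 3 (adjusted p = 0.0769). Fructose stood at 78.7% (adjusted p = 0.0366), lost without AIN-93 replicate 1 (adjusted p = 0.126), AIN-93 replicate 3 (adjusted p = 0.109), high fructose replicate 1 (adjusted p = 0.0501), high fructose replicate 2 (adjusted p = 0.068) or high fructose replicate 3 (adjusted p = 0.104). High fat stood at 76.1% (adjusted p = 0.017), lost without AIN-93 replicate 1 (adjusted p = 0.0717), AIN-93 replicate 3 (adjusted p = 0.0629), high fat replicate 2 (adjusted p = 0.0662) or high fat replicate 3 (adjusted p = 0.0615). EFA deficiency stood at 76.8% (adjusted p = 0.0209), lost without AIN-93 replicate 1 (adjusted p = 0.0834), AIN-93 replicate 3 (adjusted p = 0.0743) or EFA-deficient replicate 2 (adjusted p = 0.0733), and low n-3 at 76.6% (adjusted p = 0.0196), lost without AIN-93 replicate 1 (adjusted p = 0.0795), AIN-93 replicate 3 (adjusted p = 0.0706) or low n-3 replicate 2 (adjusted p = 0.0678). AIN-93 replicates 1 and 3 are in each of these lists.

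**Figure D3:**
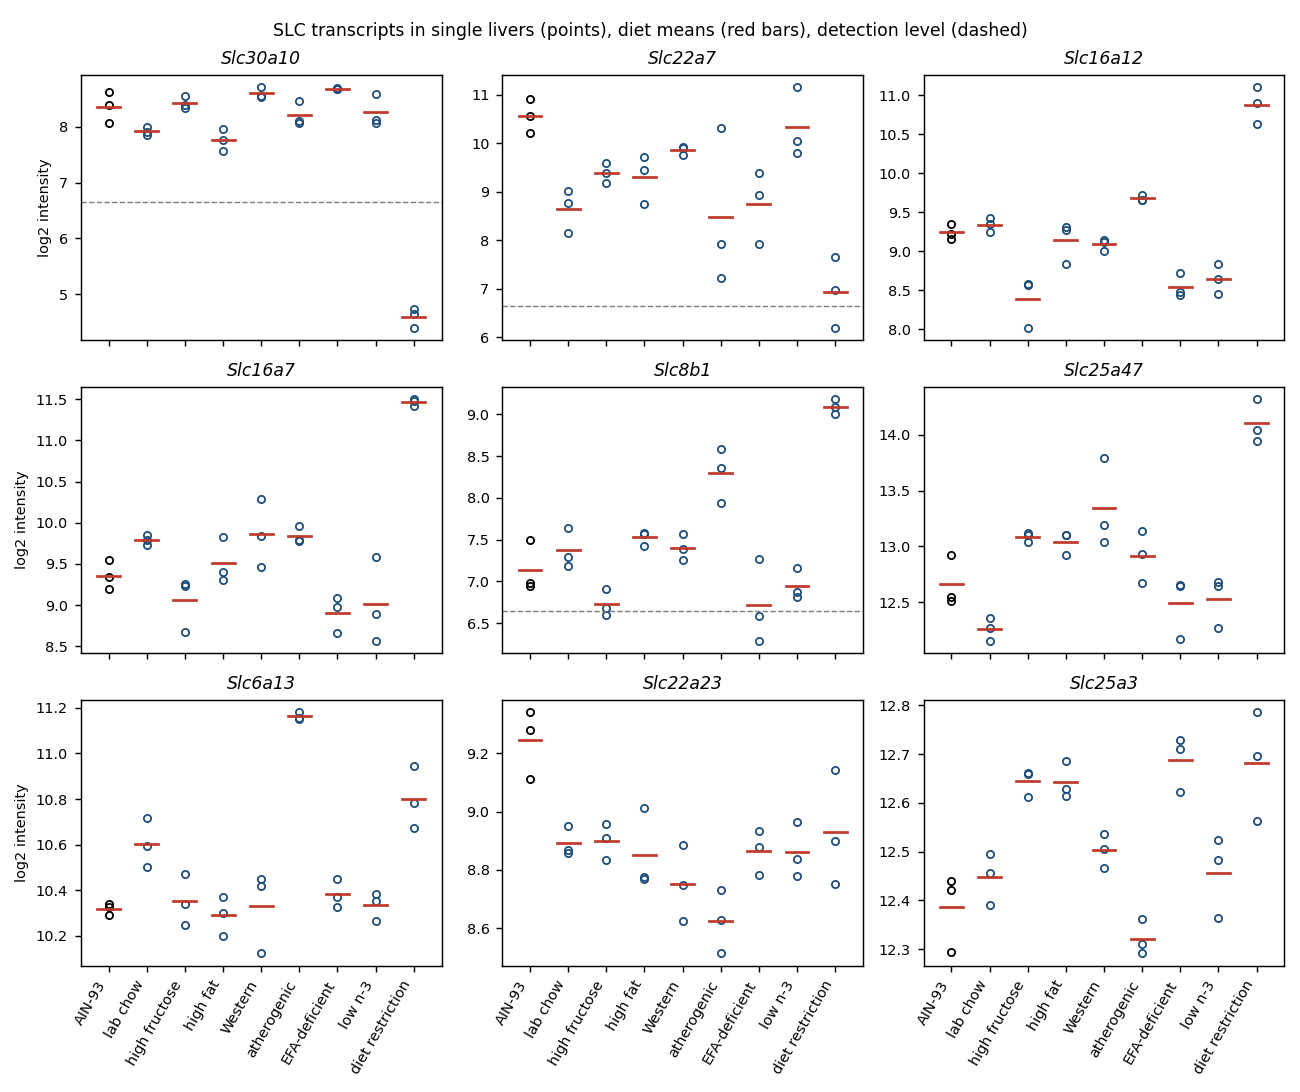
Log2 intensity of 9 SLC genes on every array (circles, 3 mice per diet, control in black), with the diet mean as a red bar and the detection level of 6.64 dashed where it falls in the panel. Slc30a10 lies at 4.40 to 4.73 under diet restriction and at or above 7.56 elsewhere, and the 3 control arrays of Slc22a23 lie above those of 7 diets.

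Apart from restriction, no class had more than 3 genes called higher on 1 diet against AIN-93, or more than 2 lower. Of 10 organic ion carriers, the atherogenic diet had 3 higher and 2 lower, high fat 2 higher and 1 lower and Western 1 higher and 2 lower. On high fructose and low n-3 the 1 call of this class was Slc22a23, whose 7 calls rest on the same control arrays. Amino acid carriers had 3 higher and 2 lower on the atherogenic diet and 0 calls on lab chow, fructose, EFA deficiency and low n-3. Of the 14 SLC35 genes in the nucleotide sugar class, Slc35e3 was higher on the atherogenic diet, at 188% (adjusted p = 0.00603) of control. In that class 0 were called on high fructose, Western, EFA deficiency and low n-3.

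**Figure D4:**
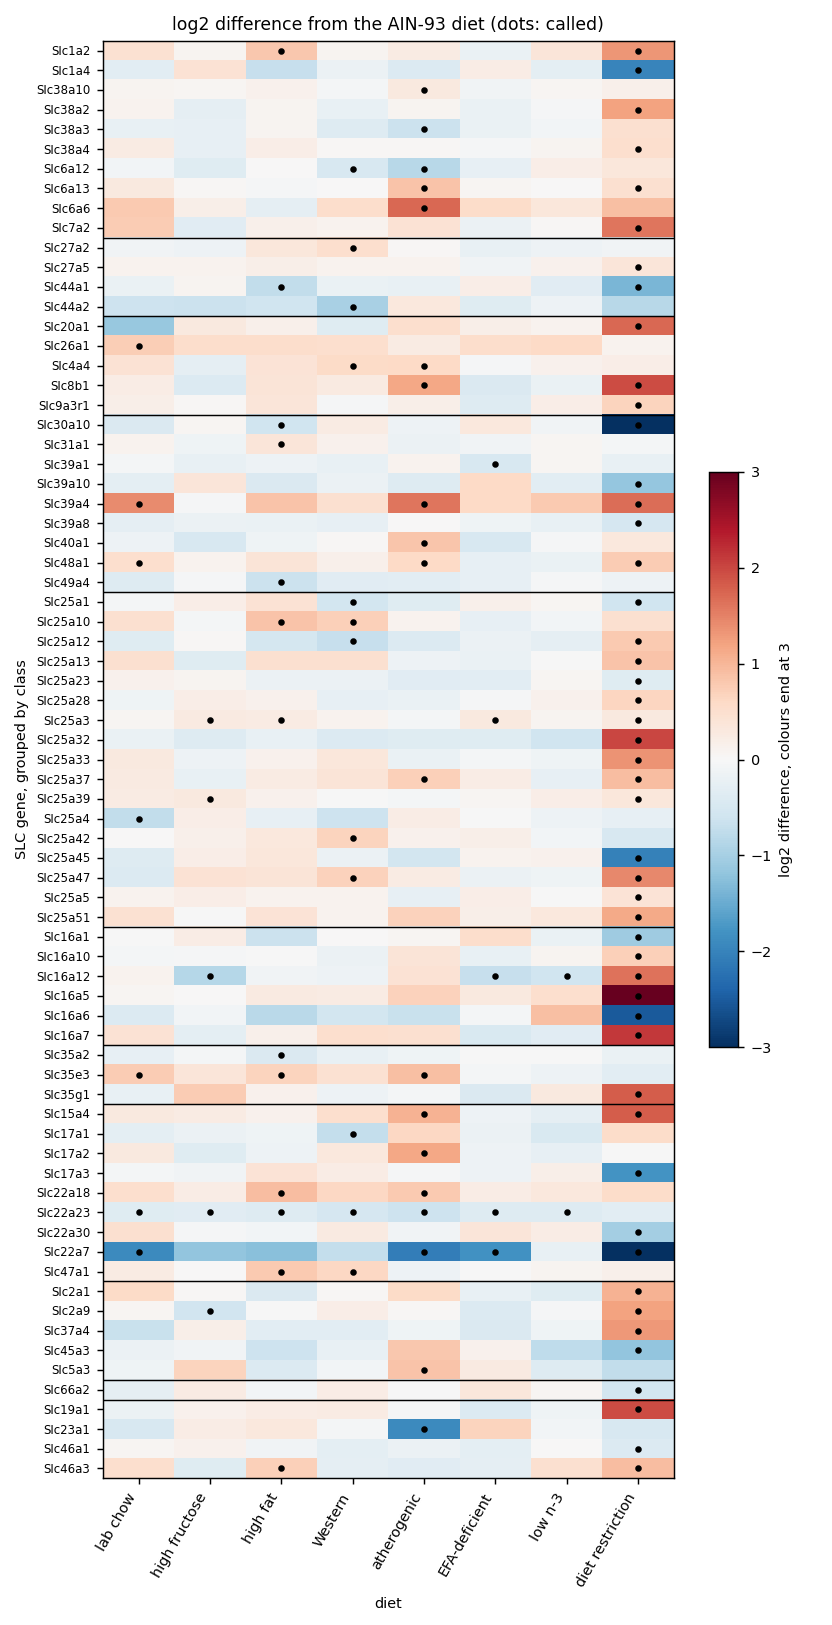
Colours give the log2 difference from AIN-93 for the 73 SLC genes called in at least 1 diet (vertical axis, grouped by class with lines between) on 8 diets (horizontal axis), each from n = 3 arrays against 3 control arrays. Black dots mark calls and colours end at 3 in either direction, and diet restriction holds 49 dots and low n-3 holds 2.

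Genes related to the SLC families but named otherwise were read beside them. The Slco genes encode organic anion carriers, and 5 of 15 were detected. Under restriction Slco1a4 was higher, at 7.31, 7.08 and 6.07 in control and 11.61, 11.08 and 11.19, and Slco1a1 lower, at 11.20, 10.73 and 10.73 in control and 3.86, 3.31 and 2.92. Of 3 detected mitochondrial carriers with other names, Mpc1, a subunit of the pyruvate carrier, was the 1 called, at 139% (adjusted p = 0.0197) of control under restriction. Of 4 detected partner proteins of carriers 0 were called under restriction and 1 on high fat, Bsg (basigin), which brings MCT1 to the membrane, at 159.7% (adjusted p = 0.0494). Targets of ATF4, the factor of the amino acid response, were detected for 7 of 13 genes, with 3 higher and 1 lower under restriction, where 13.5% and 16% of all detected genes were higher and lower. Their median difference from AIN-93 was 1.17 on the log2 scale under restriction and 0.71 on lab chow, where 1 gene was higher. Between restriction and lab chow, with 2 higher and 1 lower, it was 0.10. Of 6 detected metal responsive genes 3 were higher under restriction, Mt1, Mt2 and Tfrc, where 13.5% of all detected genes were higher. Mt1, a metallothionein that binds zinc, was 7.38, 9.77 and 7.69 in control and 14.53, 12.59 and 13.19 under restriction, without overlap.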

How the data were processed

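Liver RNA of 27 mice on 9 diets was hybridised to Affymetrix whole-genome mouse arrays, 1 array per mouse and 3 per diet. The authors corrected background and normalized with GCRMA (its version is not given in the sources used here), and the deposited log2 intensities were used as they are. All arrays shared a lowest value of 2.29, which GCRMA sets for dim probe sets and which compresses low values, and the medians of kept probe sets lay between 8.22 and 8.38. The number of arrays limits the precision. Probe sets were named by the platform's annotation table, and those with several symbols (932) or none (9211) of 45101 were left out. A gene's value was the mean of its kept probe sets.

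All arrays were fitted together in limma 3.58.1 (R 4.3.3), and p was adjusted by Benjamini and Hochberg over 6478 genes and 8 diets together, while the pair of comparisons between treated diets was adjusted apart. The fitting code was tested on simulated data. The SLC genes, gene classes and lists were chosen with earlier results of these data known. Genes named were up to 6 called higher and 6 lower per comparison by size, those called in at least 4 diets, the 12 with the largest range and 2 per class by F. The part of that rule on the brightest and dimmest genes was dropped, since levels of different probe sets cannot be compared. Slc38a2, Slc38a4, Slc39a8, Slc40a1, Slc25a23, Slc25a28, Slc3a2 and Slc30a1 were added after their values were seen. Diets came from the labels. Replicates were separate mice. Arrays were compared in pairs, and the highest correlation was 0.9895.

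Alternatives were no filter, a filter on the mean over all arrays, the brightest or each probe set, median centring, quantile normalization, array weights, the 2 groups alone, p adjusted within each diet, the replicate block, the methods' test and leaving out each array. Motifs were searched in RefSeq promoters, with Python 3.11.15 (pandas 2.3.3, matplotlib 3.10.9).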

Additional observations from a re-analysis of the deposited data

How the results depend on the processing

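The number of SLC genes called under diet restriction moved little, from 49 to between 42 and 62 against AIN-93 and from 51 to between 40 and 57 against lab chow, over all alternatives run. Smaller counts depended on the settings, and the cause was not tested. With array weights the counts were 8 for EFA deficiency, 23 for Western, 37 for atherogenic, 34 for high fat, 12 for high fructose, 22 for lab chow and 5 for low n-3. In a fit of the 2 groups alone, with fewer arrays to estimate the spread, they were 0 for EFA deficiency, Western, high fructose and low n-3, 3 for lab chow and 11 for atherogenic against Western. Without a filter on low signal they were 5 for Western, 2 for high fructose and 4 for lab chow. With p adjusted within each diet they were 1 for high fructose, 2 for lab chow and 0 for low n-3. With 1 array left out, counts ranged from 3 to 7 for EFA deficiency, 4 to 9 for Western, 14 to 19 for atherogenic, 18 to 25 for atherogenic against Western, 8 to 13 for high fat, 1 to 5 for high fructose, 2 to 8 for lab chow and 1 to 4 for low n-3. Arrays centred on their medians gave splits of 8 higher and 3 lower for Western, 8 and 2 for lab chow, 13 and 8 for atherogenic, 10 and 4 for high fat, 2 and 2 for high fructose and 13 and 11 for atherogenic against Western, and quantile normalization gave 13 and 10 for the last. The test named in the study's methods gave 3 calls for low n-3, of which 1 was higher. The number varying over the 9 diets stayed between 76 and 100. Of 168 named calls, 89 passed under every alternative, 79 were lost under at least 1 (61 in the fit of the 2 groups alone, 67 with an array left out) and 0 changed sign. Replicate numbers were not treated as pairs, since residuals of arrays with 1 number correlated from -0.273 to 0.413, with medians of -0.006 to 0.017. By mean correlation, 15 of 27 arrays went best with their own number. That is a larger share than the 8 of 24 arrays of other diets that have the same number. What the numbers stand for was not tested. The replicate block gave 50 calls for restriction and 20 for atherogenic against AIN-93, and 3 named calls were lost under it, Slc16a10 and Slc25a10 in atherogenic against Western and Slc17a1 in Western. Probe sets of 1 gene differed in sign for Slc1a2 in both atherogenic comparisons and for Slc31a1 in atherogenic against AIN-93. Low values are compressed, and 3 arrays per diet leave changes within the wider intervals unresolved.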
